A study of Mus musculus with 16 samples.

Results

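The 4 inhibitor of DNA binding genes Id1, Id2, Id3 and Id4, the inhibitory SMAD genes Smad6 and Smad7, and Smad9 were followed in mouse brain microvascular endothelial cells (mBMEC) with or without Ccm3 (Pdcd10) and after propranolol or rapamycin. These 7 genes, named from their place in the BMP pathway with earlier results of these data known, are 7 of the 54193 genes in the files. The estimated counts of all transcripts of a gene were summed in each of the 16 RNA-seq libraries, and the 6 groups of libraries were compared. All 7 genes passed the filter on low counts, but 5 of the 6 libraries in which Smad9 reached the minimum had been treated with rapamycin, so Smad9 passed through the groups in which it was high. In GRCm39, Id1 lies at chr2:152566218-152579544 (plus strand), Id2 at chr12:25143798-25147282 (minus), Id3 at chr4:135870808-135873066 (plus), Id4 at chr13:48414558-48419502 (plus), Smad6 at chr9:63860341-63929793 (minus), Smad7 at chr18:75500374-75529006 (plus) and Smad9 at chr3:54662963-54708680 (plus).

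The cells were primary cultures from adult mice, 8 to 10 weeks old, that carried floxed alleles of Pdcd10 and Cdh5(PAC)-CreERT2, a Cre recombinase that is driven by an endothelial promoter and is active after 4-hydroxytamoxifen (4-OHT). WT cells had not received 4-OHT and KO cells had, so all groups carried the transgene and the floxed alleles, and exposure to 4-OHT and loss of Ccm3 cannot be told apart. Cells were untreated (WT, n = 3, and KO, n = 3) or treated for 24 h with 10 µM propranolol, a beta-blocker (WT+P, n = 2, and KO+P, n = 3), or with 100 nM rapamycin, an inhibitor of the kinase complex mTORC1 (WT+R, n = 2, and KO+R, n = 3). Each culture came from the pooled brains of 3 to 4 mice and was selected with puromycin, and libraries of treated and untreated cells with the same number varied together. The comparisons asked what loss of Ccm3 changed and which of the drugs changed it back.

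Bone morphogenetic proteins (BMPs) and transforming growth factor beta bind pairs of type I and type II receptors, which phosphorylate receptor-regulated SMAD proteins. SMAD1, SMAD5 and SMAD9 carry the BMP signal, bind SMAD4 and switch on target genes, and Id1, Id2 and Id3 are among the best known of them in endothelium. ID proteins have a helix-loop-helix but no DNA-binding region, and hold basic helix-loop-helix factors away from DNA. Smad6 and Smad7 are targets as well, and their proteins act back on the pathway: SMAD6 acts mainly on the BMP branch, and SMAD7 blocks type I receptors of both branches and brings in SMURF ubiquitin ligases. Smad9 encodes a receptor-regulated SMAD, also called SMAD8, and not an inhibitory one.

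The DNA upstream of Id1, Id2, Id3 and Smad6 is shown with its matches to elements that SMAD complexes are known to bind. That of Smad7, also called with rapamycin, was not analysed here. GGCGCC, which reads the same on both strands, is a GC-rich element of SMAD1 and SMAD5. CAGAC is a SMAD-binding element, written GTCTG on the opposite strand. In the GRCm39 genome, the 2000 bases before the start of the main Id1 transcript held 1 GGCGCC, 1093 bases before the start, and 8 CAGAC matches on either strand. Id2 held 2 GGCGCC and 7 CAGAC matches, Smad6 held 1 GGCGCC and 3 CAGAC matches, and Id3 held no GGCGCC and 8 CAGAC matches. The stretches shown hold the GGCGCC farthest from the start and the matches within the 200 bases after it. For Id3, without GGCGCC, they hold the 2 CAGAC matches nearest to the start. The stretches run 5′ to 3′ on the strand of the gene, with the matches, none of which overlap, in capitals. That of Id1 (chr2:152577057-152577185, plus strand) lies in an intron of longer Id1 transcripts, and that of Id2 (chr12:25148836-25148936, minus strand) outside Id2 and, but for its 5′ end, in introns of the long noncoding RNA gene Gm36287 on the opposite strand. That of Smad6 (chr9:63930140-63930358, minus strand) lies outside annotated genes, and that of Id3 (chr4:135870622-135870667, plus strand) outside Id3 in exons of the long noncoding RNA gene Gm57159 on the opposite strand.
Id1: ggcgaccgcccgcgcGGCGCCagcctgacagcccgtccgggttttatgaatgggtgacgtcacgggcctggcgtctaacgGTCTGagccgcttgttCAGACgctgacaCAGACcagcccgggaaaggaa
Id2: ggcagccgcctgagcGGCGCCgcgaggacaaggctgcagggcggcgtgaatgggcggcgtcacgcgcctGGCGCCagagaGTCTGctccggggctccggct
Smad6: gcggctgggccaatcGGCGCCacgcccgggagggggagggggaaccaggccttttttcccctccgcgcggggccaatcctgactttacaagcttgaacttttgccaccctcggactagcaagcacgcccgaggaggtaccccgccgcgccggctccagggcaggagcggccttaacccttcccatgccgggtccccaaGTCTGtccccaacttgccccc
Id3: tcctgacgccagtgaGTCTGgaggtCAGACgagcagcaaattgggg

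These letters are common. Among the 13112 tested protein-coding genes searched in the same way, 23.6% held GGCGCC, 98.7% held CAGAC, and 9.2% held both within 100 bases of each other, as Id1 and Id2 did. The stretches of Id1 and Id2 also shared 25 of 30 bases without a gap (83.3%), shown with the shared bases in capitals, beginning 1063 bases before the start of Id1 and 1609 before that of Id2.
Id1: aTGAATGGGtGaCGTCACGgGCCTGGCGtC
Id2: gTGAATGGGcGgCGTCACGcGCCTGGCGcC
These 30 bases were picked as the closest match between the stretches of Id1 and Id2, and the match set the limit of 25. On either strand, 2 of the 13112 upstream regions (0.0153%) held 30 bases with at least 25 of these Id1 letters. They were those of Id1 and Id2 themselves, which were bound to be found, so the search shows only that no other region reached the limit. A match is a description of the sequence, and binding was not measured.

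The libraries held 18830503 to 26203339 counts. Levels are given per library as CPM, counts scaled to a common library total with TMM factors that correct for library composition, or as mean ± SD over the libraries of a group. The 8 endothelial markers summed to between 6202 and 13010 CPM, against at most 16.4 for mural cells, 7.25 for astrocytes, 0.993 for microglia and macrophages, 2.04 for oligodendrocytes and 28.5 for neurons, the last of which was almost all Tubb3. Fibroblast markers ranged from 4.79 to 202 CPM with overlap between every pair of groups compared, and Lum and P2ry12 were at 0 in all 16 libraries. Pdcd10, the deleted gene, was at 11.5, 31.2 and 47 CPM in WT replicates 1, 2 and 3, at 27.7 to 60.8 CPM in the drug-treated WT libraries and at 7.83 to 16.7 CPM in the 9 KO libraries, so the library labelled WT replicate 1 lay within the range of the KO libraries, and the differences from WT given for the 7 genes are also given without it.

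**Figure D1:**
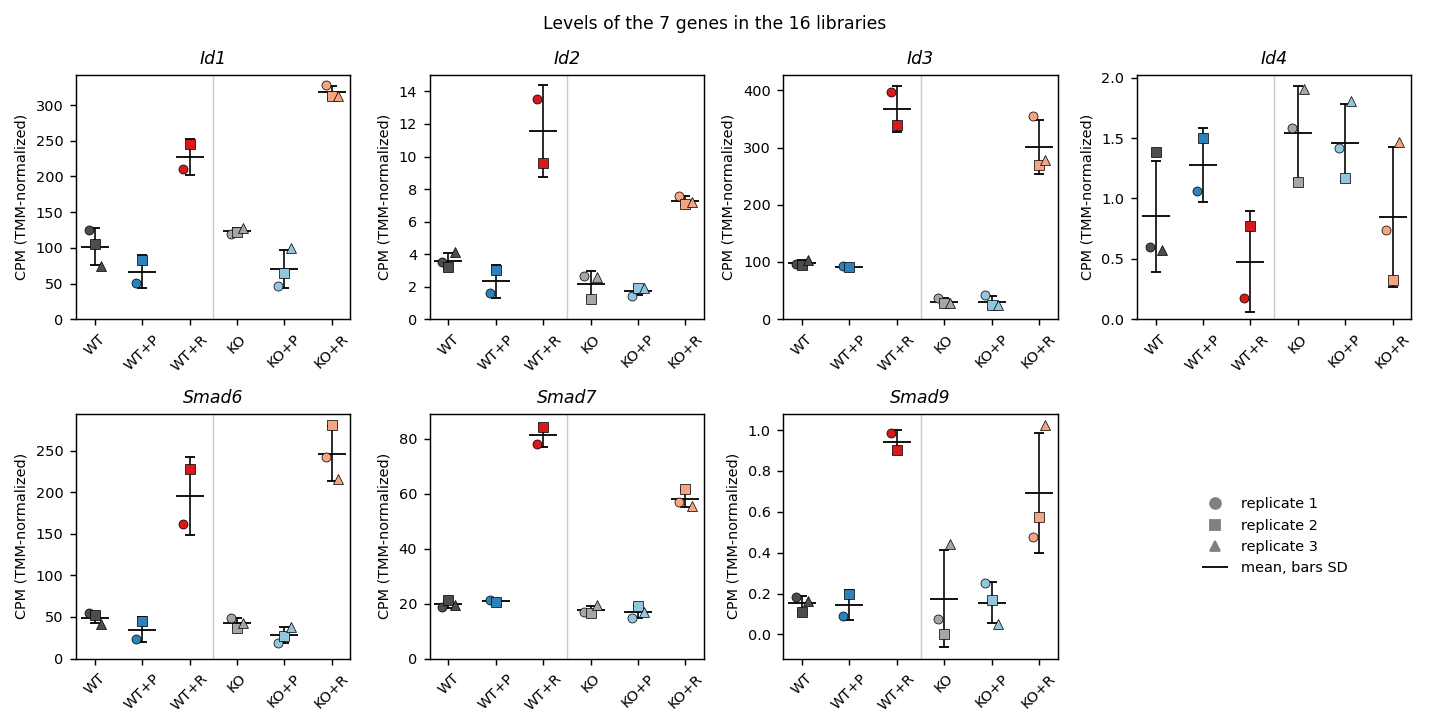
Level of each of the 7 genes (y axis, TMM-normalized CPM, with its own scale in each panel) in the 6 groups (x axis). Each symbol is 1 library, its shape the replicate number, and lines are the group mean with SD bars. The rapamycin-treated groups lie above all other groups for Id1, Id2, Id3, Smad6, Smad7 and Smad9, and Id3 is lower in KO and KO+P than in WT and WT+P.

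With rapamycin 5 of the 7 genes rose in KO cells, Id1, Id2, Id3, Smad6 and Smad7, by 2.58 to 9.74-fold, and none fell. Across all 14838 genes tested, 1.51% were called in KO+R against KO cells, 0.708% as higher (edgeR's quasi-likelihood test, Benjamini-Hochberg adjusted p under 0.05 and a fold over 1.5). In WT cells, 4 of the 7 were called higher, Id2, Id3, Smad6 and Smad7, where 1.4% of all genes were called and 0.647% as higher. Without the library labelled WT replicate 1 these were 3, Id3, Smad6 and Smad7. With no filter on low counts, with the replicate number as a block in edgeR or with DESeq2 they were 5, Id1 included. With DESeq2 and the block they were 6, Smad9 included as well. The shares of all genes given here are those of the main fit and do not apply to these alternatives. Over the 7 genes the median log2 fold change with rapamycin was 1.76 in KO and 1.90 in WT cells, beside -0.02 and -0.01 over all genes tested. In each genotype Id1, Id2, Id3, Smad6 and Smad7 lay above the untreated libraries without overlap, as did 10.9% of all genes in KO and 14% in WT cells. Smad9 did too, but it passed the filter on low counts through its rapamycin-treated libraries. It counts in the median above but not in this comparison with all genes.

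Id3, which in endothelium acts together with Id1 in vessel growth, was the gene of the 7 that differed most between KO and WT cells. It stood at 96.7, 94.9 and 103.7 CPM in the WT libraries and at 37.1, 28.1 and 27.5 CPM in the KO libraries. KO lay below WT without overlap for Id3 and Id2, as it did for 6.5% of all genes. Id3 fell by 1.67 on the log2 scale (95% confidence interval -2.12 to -1.22, edgeR's adjusted p = 0.0343), which is 3.18-fold lower. It was the 1 gene called of all 14838 (0.00674%) in the model without the replicate block. That model did not call Pdcd10, the deleted gene (log2 difference -1.56, edgeR's adjusted p = 0.42), so a gene without a call may still differ. For Id3, KO lay below WT in 3 of 3 pairs of libraries with the same number, by 1.38 to 1.91. The size of the change was between -1.82 and -1.59 whichever library was left out, but the call held in 1 of the 6 fits, that without KO replicate 1, and was lost without WT replicate 1 (edgeR's adjusted p = 0.0849), 2 (0.0697) or 3 (0.139) and without KO replicate 2 (0.317) or 3 (0.347). When the replicate number was a block and the library labelled WT replicate 1 was left out, the log2 fold change was -1.84 (edgeR's adjusted p = 0.00266).

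With rapamycin, Id3 reached 355, 269 and 279 CPM in KO+R cells and 396 and 339 CPM in WT+R cells. Every treated library lay above every untreated one. Id3 rose 9.74-fold in KO cells (log2 fold change 3.28 ± 0.22 SE, edgeR's adjusted p = 1.33e-05) and 3.73-fold in WT cells (log2 fold change 1.90 ± 0.22 SE, edgeR's adjusted p = 0.00234, and 0.0176 without the library labelled WT replicate 1). KO+R and WT+R cells overlapped in Id3, with a log2 difference of -0.29 (95% confidence interval -0.77 to 0.19, edgeR's adjusted p = 1), where 0 of the 7 genes and 0% of all genes were called. The log2 fold change with rapamycin was larger in KO than in WT cells by 1.38 on the log2 scale (95% confidence interval 0.72 to 2.05), a difference with an unadjusted p of 0.000608 in edgeR's fit that did not pass adjustment over all genes (adjusted p = 1, 0% of genes called). With the replicate number as a block, DESeq2 called it (1.47, adjusted p = 5.82e-05) and edgeR did not (1.45, adjusted p = 0.333). Without the library labelled WT replicate 1 it was 1.41, and 1.63 with the block as well (edgeR's adjusted p = 1 and 0.141).

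With propranolol Id3 was not called in either genotype. The level was 92.6 and 91.6 CPM in WT+P and 42.9, 24.5 and 24.4 CPM in KO+P cells. The log2 differences from untreated cells were -0.10 in WT (95% confidence interval -0.58 to 0.39, and -0.12 without the library labelled WT replicate 1) and -0.01 in KO cells (-0.45 to 0.43), with 2 WT+P libraries below all WT libraries in Id3 and Id2, as in 10.3% of all genes. KO+P cells lay below WT+P cells without overlap in Id3 and Smad7, as in 8.77% of all genes. For Id3 the log2 difference was -1.59 (95% confidence interval -2.07 to -1.10), which was not called by edgeR (adjusted p = 0.128, where 0 of the 7 genes and 0% of all genes were called and 2 of the 7 and 6.19% of all genes had an unadjusted p under 0.05) and was called with the replicate block (-1.57, adjusted p = 0.00794), by DESeq2 (adjusted p = 8.49e-07) and without KO+P replicate 1 (-1.91, edgeR's adjusted p = 0.00204).

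Id1, whose protein keeps endothelial and stem cells from differentiating, had the highest level per length of the 7 in untreated cells, with a mean of 240.5 ± 49.8 TPM, a scale that divides by transcript length, in WT and 286 ± 8.87 TPM in KO cells. Id3 followed with 154 ± 13.9 and 47 ± 7.44 TPM. Smad6 was at 28.4 ± 3.38 and 24.4 ± 3.51, Smad7 at 7.61 ± 0.674 and 6.63 ± 0.495, and Id2 at 5.67 ± 1.22 and 3.29 ± 1.08 TPM. Across the groups this order was the same except in WT+R, where Id3 (536 ± 52.5 TPM) lay above Id1 (504 ± 64.3 TPM) with overlap. Id4 and Smad9 stayed under 1 TPM in each library.

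In CPM, Id1 was at 125, 105 and 74.5 in WT and at 119.6, 122 and 128 in KO libraries, which overlapped (log2 difference 0.28, 95% confidence interval -0.28 to 0.83, and 0.45 without the library labelled WT replicate 1). With rapamycin it was at 209.8 and 245 CPM in WT+R and at 328, 313 and 312 CPM in KO+R cells. Each treated library lay above all untreated libraries. Id1 rose 2.58-fold in KO cells (log2 fold change 1.37 ± 0.26 SE, edgeR's adjusted p = 0.0233), although this call was lost in each of the 6 fits that left out 1 library (log2 fold change 1.35 to 1.41, edgeR's adjusted p 0.0625 to 0.098). In WT cells its log2 difference of 1.16 ± 0.28 SE was not called by edgeR (adjusted p = 0.0614, and 1.34 with adjusted p = 0.0808 without the library labelled WT replicate 1) and was called with the replicate block (1.17, adjusted p = 0.0366), when that library was left out of the blocked fit (1.503, adjusted p = 0.0249), and by DESeq2 (adjusted p = 0.00602). KO+R lay above WT+R in Id1 without overlap (9.43% of all genes did so), a log2 difference of 0.48 (95% confidence interval -0.14 to 1.11, edgeR's adjusted p = 1).

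Mean Id1 was lower in propranolol-treated than in untreated libraries of each genotype, and WT+P overlapped WT. The treated libraries held 50.1 and 83.3 CPM in WT+P and 46.7, 64.4 and 99.8 CPM in KO+P cells. KO+P lay below KO without overlap, as did 9.11% of all genes, and below the KO library of the same number in 3 of 3 pairs. The log2 difference was -0.81 ± 0.26 SE in KO (edgeR's adjusted p = 0.315) and -0.61 ± 0.29 SE in WT cells (adjusted p = 0.516, and -0.43 with adjusted p = 0.833 without the library labelled WT replicate 1), so neither was called. In WT the value was -0.29 without WT+P replicate 1 and -1.02 without WT+P replicate 2. In KO+P against KO cells 0 of the 7 genes were called by edgeR and by DESeq2 and 0.00674% of all genes by edgeR, and 2 of the 7 had an unadjusted p under 0.05, as did 12.6% of all genes. Id1 was called there without KO+P replicate 3 (-1.15, edgeR's adjusted p = 0.0377) and by the blocked DESeq2 fit (-0.83, adjusted p = 0.0269). In WT+P against WT cells 0 of the 7 genes were called by either tool, 0 had an unadjusted p under 0.05 (9.87% of all genes), and 0.00674% of all genes were called. The endothelial markers summed to 6618 to 9903 CPM in KO+P, below the 10580 to 11500 CPM of KO libraries, and to 6202 to 9656 CPM in WT+P, below the 10040 to 13010 CPM of WT libraries. Their part in the low values was not tested. In bulk RNA, fewer cells of a type and less RNA per cell cannot be told apart.

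Id2, a partner of E proteins in many lineages, was low in these cells. WT libraries held 3.5, 3.21 and 4.1 CPM and KO libraries 2.63, 1.25 and 2.58 CPM. KO lay below WT in 3 of 3 pairs and without overlap, yet the log2 difference of -0.74 (95% confidence interval -1.40 to -0.08) was not called (edgeR's adjusted p = 0.732, and -0.77 with adjusted p = 0.853 without the library labelled WT replicate 1). With rapamycin Id2 was at 13.6 and 9.58 CPM in WT+R and at 7.57, 7.05 and 7.22 CPM in KO+R cells. It rose 3.21-fold in WT (log2 fold change 1.68 ± 0.33 SE, edgeR's adjusted p = 0.0262) and 3.38-fold in KO cells (1.76 ± 0.31 SE, adjusted p = 0.0156). The call in WT cells was lost without any 1 of the 5 libraries (log2 fold change 1.41 to 1.91, edgeR's adjusted p 0.0615 to 0.283), that of the library labelled WT replicate 1 included (1.66, 0.0864). The call in KO cells was lost without KO replicate 3 (1.90, edgeR's adjusted p = 0.0537), KO+R replicate 1 (1.75, 0.0564) or KO+R replicate 3 (1.78, 0.0512). Propranolol-treated libraries held 1.62 and 3.04 CPM in WT+P and 1.46, 1.92 and 1.91 CPM in KO+P cells, a log2 difference of -0.63 (-0.66 without the library labelled WT replicate 1) and -0.29 from untreated cells.

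Id4 went the other way in value, without a call. It rested on 4 to 43 counts a library, with 0.574 to 1.38 CPM in WT, 1.14 to 1.91 in KO, 1.06 to 1.5 in WT+P, 1.17 to 1.81 in KO+P, 0.179 to 0.773 in WT+R and 0.328 to 1.47 in KO+R libraries. Groups next to each other in the order of their means all overlapped. The log2 difference with rapamycin was -0.83 in WT (95% confidence interval -2.31 to 0.64) and -0.86 in KO cells (-2.12 to 0.39). It was -1.03 in WT without the library labelled WT replicate 1, and with any 1 library left out it ran from -2.22 to -0.14 in WT, both ends reached by leaving out a WT+R library, and from -1.52 to -0.45 in KO cells, both ends by leaving out a KO+R library. KO+R lay below KO in 3 of 3 pairs. In the files, 4.3% of its exonic bases are shared with Gm49291 on the opposite strand, and reads of the pair cannot be told apart in unstranded libraries. In the whole annotation opposite-strand genes also cover 17.6% of the exonic bases of Id1, 43% of Id2 and 11.8% of Id3.

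Smad6 had the largest fold change with rapamycin after Id3 among the 5 genes called in KO cells. Its level was 54.4, 52.3 and 41.2 CPM in WT and 48.6, 37.2 and 42.8 CPM in KO libraries, which overlapped (log2 difference -0.20, 95% confidence interval -0.77 to 0.37, and -0.13 without the library labelled WT replicate 1). It reached 162 and 228 CPM in WT+R and 242, 281 and 216 CPM in KO+R cells. Smad6 rose 5.75-fold in KO cells (log2 fold change 2.52 ± 0.28 SE, edgeR's adjusted p = 0.00146) and 3.96-fold in WT cells (1.99 ± 0.29 SE, adjusted p = 0.00796). Without WT+R replicate 2 Smad6 was no longer called in WT cells (1.72, edgeR's adjusted p = 0.056), without the library labelled WT replicate 1 it was (2.06, 0.0291), and in KO cells each of the 6 fits lacking a library called it. Propranolol-treated libraries held 23.8 and 45 CPM in WT+P and 19.1, 26.8 and 38.1 CPM in KO+P cells. KO+P lay below KO in 3 of 3 pairs, by 0.17 to 1.34 on the log2 scale, a difference that was not called (log2 -0.61 ± 0.27 SE, edgeR's adjusted p = 0.373).

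Smad7 had the smallest standard errors of the 7 genes, 0.11 to 0.13 on the log2 scale between 2 groups. It was at 18.8, 21.3 and 19.5 CPM in WT, at 21.4 and 20.6 CPM in WT+P, at 16.9, 16.6 and 19.5 CPM in KO and at 14.9, 19 and 17 CPM in KO+P libraries. The WT+R libraries held 78.3 and 84.3 CPM and the KO+R libraries 57.2, 61.6 and 55.7 CPM, above all others. Smad7 rose 4.09-fold in WT (log2 fold change 2.03 ± 0.12 SE, edgeR's adjusted p = 4.49e-06) and 3.3-fold in KO cells (1.72 ± 0.11 SE, adjusted p = 1.33e-05), and both calls held in every fit that left out a library, that labelled WT replicate 1 included (1.99, adjusted p = 9.93e-05). KO+R lay below WT+R without overlap in Smad7 and Id2, as in 9.79% of all genes. For Smad7 the log2 difference was -0.48 (95% confidence interval -0.74 to -0.23) and was not called (edgeR's adjusted p = 0.39). In that comparison 0 of the 7 genes were called by edgeR or DESeq2, and 1 of the 7, Smad7, had an unadjusted p under 0.05, as did 5.72% of all genes. With the replicate block, DESeq2 gave Smad7 a log2 difference of -0.48 between KO+R and WT+R (adjusted p = 0.00798). Its adjusted p passed there, and it went uncalled because its fold was under the limit for a call. Blocked edgeR gave -0.49 (adjusted p = 0.0938), which did not pass. The difference between the responses of the genotypes was -0.31 for Smad7 (95% confidence interval -0.66 to 0.03) and 0.54 for Smad6 (-0.32 to 1.39), neither called, and -0.26 and 0.48 without the library labelled WT replicate 1. For propranolol 0 of the 7 genes and 0% of all genes had a called difference between the responses, 0 of the 7 by DESeq2, and 0 of the 7 had an unadjusted p under 0.05 in edgeR's fit, beside 0.721% of all genes.

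Smad9 was near the limit of detection, and 5 of the 6 libraries in which it reached the minimum of the filter were rapamycin-treated. Smad9 thus passed through the groups in which it was high, and its values with rapamycin are given as a description. It had 0 to 10 counts in the 11 libraries without rapamycin and 9 to 23 in the 5 libraries with it. WT+R held 0.985 and 0.902 CPM and KO+R 0.476, 0.574 and 1.025 CPM, against 0.184, 0.112 and 0.164 CPM in WT and 0.0775, 0 and 0.444 CPM in KO cells. Every library with rapamycin lay above every library without it in CPM. The log2 difference with rapamycin was 2.59 ± 0.93 SE in WT and 2.01 ± 0.86 SE in KO cells, not called by edgeR (adjusted p = 0.226 and 0.347). In WT cells it was 2.73 without the library labelled WT replicate 1 (edgeR's adjusted p = 0.35). The value in KO cells was 3.995 without KO replicate 3, the KO library with the most Smad9, and 1.41 without KO replicate 2, at 0 counts (edgeR's adjusted p = 0.0881 and 0.623). With replicates as a block, DESeq2 called it in WT cells (2.94, adjusted p = 0.0427) and not in KO cells (2.27, adjusted p = 0.0837).

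**Figure D2:**
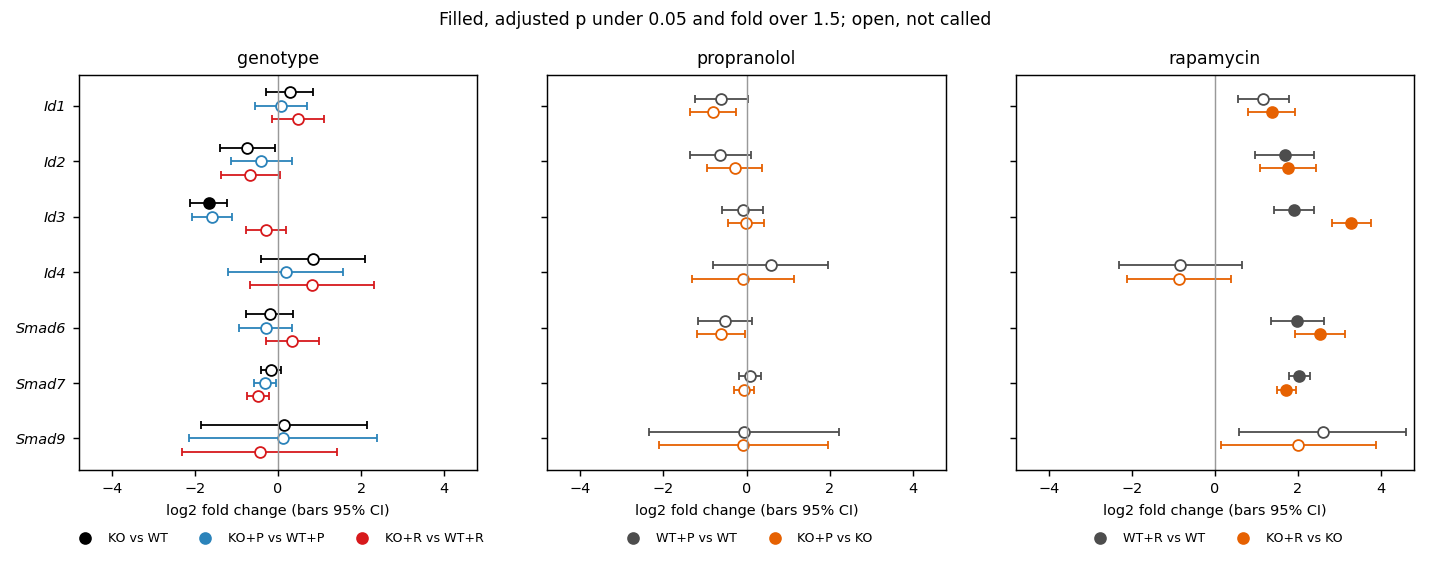
Log2 fold change (x axis, bars 95% confidence interval from edgeR) of the 7 genes (y axis) for genotype, propranolol and rapamycin. Filled points were called and open points were not. Rapamycin-treated cells have Id1, Id2, Id3, Smad6, Smad7 and Smad9 to the right of 0 in each genotype, not all of them called, and in the genotype panel Id3 is at -1.67 in untreated and -0.29 in rapamycin-treated cells.

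The same 5 genes were higher with rapamycin than with propranolol in each genotype. In KO+R against KO+P cells Id1, Id2, Id3, Smad6 and Smad7 were called higher, where 4.08% of all genes were called and 1.58% as higher. These 5 genes were also higher without overlap (11.7% of all genes), and so they were in WT+R against WT+P cells (17.5%), where Id4 was lower (19.4%). Smad9 was higher without overlap in both, but is not counted because it passed the filter through its rapamycin-treated libraries. The log2 fold changes in KO cells were 2.18 for Id1, 2.05 for Id2, 3.30 for Id3, 3.14 for Smad6 and 1.78 for Smad7, and all 5 were called in every fit that left out a library. In WT+R against WT+P cells the values were 1.77, 2.31, 2.00, 2.503 and 1.95 in the same order, where 1.31% of all genes were called and 0.492% as higher. With 2 libraries in each group, all 5 were called. Without WT+P replicate 1 the call held for Smad7 alone, without WT+R replicate 1 for Smad6 and Smad7, without WT+R replicate 2 for 4 genes, all but Id1, and with these groups fitted alone for 0. These comparisons share the rapamycin libraries with those against untreated cells.

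The order of the groups was not the same for all genes. From low to high mean, Id1 was WT+P, KO+P, WT, KO, WT+R and KO+R, where WT+P, KO+P, WT and KO each overlapped the next and WT+R and KO+R stood apart. Smad6 was KO+P, WT+P, KO, WT, WT+R and KO+R, and all neighbours overlapped except WT and WT+R. Id3 was KO+P, KO, WT+P, WT, KO+R and WT+R, where KO+P overlapped KO, KO+R overlapped WT+R, and the other neighbours did not overlap. Id2 and Smad7 were also highest in WT+R, with KO+R next below it and apart from it.

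**Figure D3:**
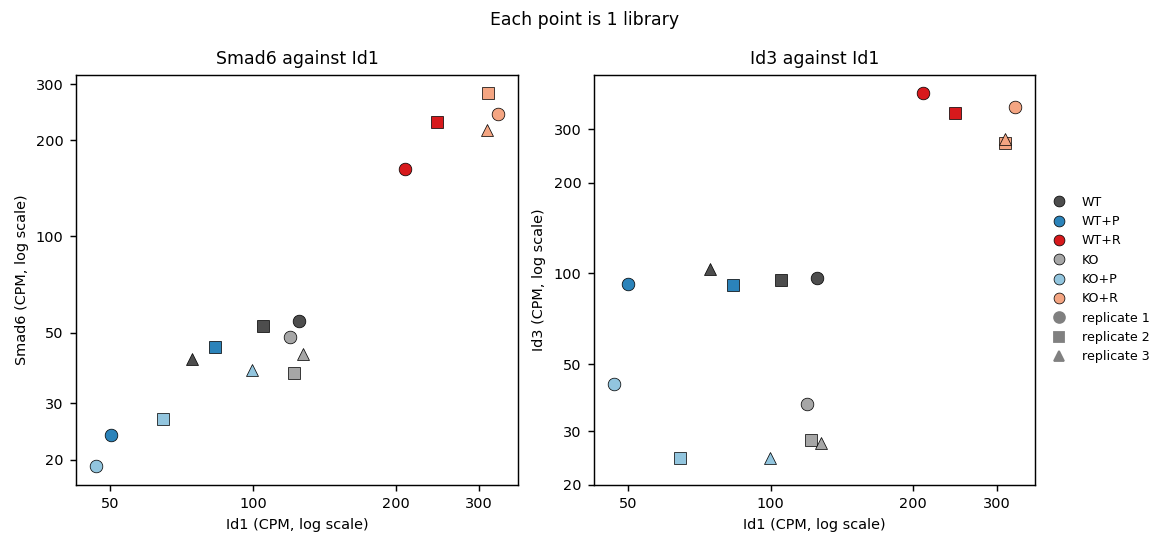
Smad6 (left) and Id3 (right) against Id1, in TMM-normalized CPM on log axes. Each point is 1 library, its color the group and its shape the replicate number. Smad6 follows Id1 through all groups, and Id3 separates KO and KO+P from WT and WT+P libraries at like levels of Id1.

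Over the 16 libraries, Smad6 was the gene closest to Id1 among the other 6 (Pearson r of log2 CPM 0.959), and the r was 0.883 after the group means had been taken out. For Id1 with Id3 it was 0.697, and -0.55 after the group means had been taken out. Among tested genes averaging 5 CPM or more, the 5 with the highest r to Id1 were Plxna4 (0.973), Zdhhc1, Inpp5k, Smarcc2 and Htra3 (0.959), those to Id3 were Txndc5 (0.966), Map7, Rnf114, Cxcl12 and Zmynd15 (0.944), and those to Smad6 were Id1 (0.959), Plxna4, Zdhhc1, the type II BMP receptor Bmpr2 (0.95) and Smarcc2 (0.945). The points share the groups and cultures, and these values are a description.

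One main transcript held nearly all counts of each gene. Id1-201 made up 96.5 to 98.5% of the Id1 counts in each library, Id2-201 94.7 to 100%, Id3-201 98.7 to 100%, Smad6-201 at least 99.97% and Smad7-201 at least 99.9%, and Id4 and Smad9 had 1 transcript each in the files.

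Among the ligands, Bmp2 fell with rapamycin, and Bmp6 did not pass the test against untreated cells. Of 12 listed ligands 9 were tested, with a median log2 difference with rapamycin of 0.01 in WT and 0.17 in KO cells. In each genotype 1 was called, as lower. Bmp2 was at 196 ± 84.1 CPM in WT and 22 ± 5.87 in WT+R, and at 68.3 ± 20.2 in KO and 7.79 ± 0.778 in KO+R cells, which is 8.92-fold (edgeR's adjusted p = 0.0247) and 8.76-fold lower (adjusted p = 0.0127). Bmp6 had a log2 difference of 1.45 in WT and 1.56 in KO cells (edgeR's adjusted p = 0.118 and 0.0731), called in each with the replicate block (adjusted p = 0.0153 and 0.0062), and was called higher in KO+R than in KO+P cells (2.08, adjusted p = 0.0127). The call of Bmp2 was lost in WT cells in 4 of 5 fits that left out 1 library, all but that without WT replicate 2 (log2 fold change -3.46 to -2.82), and in KO cells without any 1 of the KO+R libraries (edgeR's adjusted p 0.0586 to 0.0652). That of Bmp6 was lost without KO+P replicate 1 or 2 or KO+R replicate 1 (1.77 to 1.98).

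Of the 14 receptors and co-receptors, all tested, 3 rose with rapamycin in WT and 2 in KO cells, and none fell. Bmpr2, the type II BMP receptor, rose 1.9-fold in WT and 1.7-fold in KO cells (edgeR's adjusted p = 0.0183 and 0.0262). Eng, the endothelial co-receptor endoglin, rose 2.4-fold and 1.97-fold (0.0175 and 0.0316). Acvr1b, a type I activin receptor, rose 2.26-fold in WT cells (0.019) and had a log2 difference of 0.53 in KO cells (0.263). Rgma, a BMP co-receptor, was called lower in KO+R than in KO+P cells (log2 fold change -2.57, adjusted p = 0.025). With 1 library left out, the calls in KO cells of Bmpr2 and Eng were lost each time (edgeR's adjusted p 0.0678 to 0.137), and in WT cells those of Bmpr2, Eng and Acvr1b each held in 1 of 5 fits, without WT replicate 1, WT replicate 2 and WT+R replicate 2, respectively. That of Rgma held without KO+P replicate 3 and was lost in the other 5 fits. The median of the 14 was -0.05 in WT and 0.03 in KO cells.

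Among Smad1, Smad5, Smad2, Smad3 and Smad4, 1 gene was called, and the median with rapamycin was 0.18 in WT and 0.11 in KO cells. Smad1, a carrier of the BMP signal, fell from 225 ± 59.2 to 81.8 ± 19.8 CPM in KO+R cells (2.75-fold lower, edgeR's adjusted p = 0.0243). In WT cells its log2 difference was -1.40 (edgeR's adjusted p = 0.0523), called with the replicate block (adjusted p = 0.000163). With 1 library left out, the call in KO cells held only without KO replicate 2 (edgeR's adjusted p up to 0.103 in the other 5 fits).

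Of 17 other inhibitors of the pathway 16 were tested, with a median of 0.13 in WT and 0.07 in KO cells with rapamycin. Against untreated cells 2 rose in each genotype and none fell. They were Skil, which encodes the SMAD co-repressor SnoN, and Smurf2, which encodes a ubiquitin ligase that works with SMAD7. Skil rose 2.8-fold in WT and 2.74-fold in KO cells (edgeR's adjusted p = 0.00234 and 0.00122), and Smurf2 1.69-fold and 1.68-fold (0.0139 and 0.00697). Tob1, which encodes a protein that restrains BMP signals, was called lower with rapamycin than with propranolol in WT (log2 fold change -0.78, adjusted p = 0.0203) and KO cells (-0.93, 0.00142). The calls of Skil against untreated cells held in every fit that left out a library, that of Smurf2 in WT cells was lost without WT+R replicate 2 (log2 difference 0.58, edgeR's adjusted p = 0.0952), and that of Tob1 in WT cells held only without WT+P replicate 2.

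Of 10 other BMP-SMAD target genes 8 were tested, and none was called against untreated cells, with medians of -0.10 in WT and 0.06 in KO cells. Atoh8, a helix-loop-helix factor of endothelium, had a log2 difference of 2.23 in WT and 3.55 in KO cells (edgeR's adjusted p = 0.377 and 0.127), called in each with the replicate block (0.0128 and 0.0031), and was called higher in KO+R than in KO+P cells (5.49, adjusted p = 0.0187). Hey1, also a Notch target, was called there as well (2.498, adjusted p = 0.0241) and in no other comparison. Leaving out KO+P replicate 1 or 2 or KO+R replicate 1 ended the call of Atoh8, and leaving out any library but KO+P replicate 3 that of Hey1 (edgeR's adjusted p up to 0.101). Of 8 targets of the TGF-beta branch 7 were tested, with medians with rapamycin of 1.08 in WT and 0.66 in KO cells. The 1 called in each genotype was Ccn2, a matricellular protein and also a target of YAP. It rose 3.52-fold in WT and 3.19-fold in KO cells (edgeR's adjusted p = 0.0182 and 0.0185). The call of Ccn2 was lost in WT cells in 4 of 5 fits, all but that without WT replicate 2, and in KO cells in 4 of 6, all but those without KO replicate 2 or KO+R replicate 3. None of the 5 tested helix-loop-helix partners of ID proteins was called in any comparison. No gene of these lists was called in KO against WT cells or with propranolol. In KO against WT, WT+P against WT and KO+P against KO cells, 0.00674% of all genes were called. With so few calls in the main fit, a gene of these lists without one may still differ. In KO against WT cells the medians were -0.88 for the TGF-beta targets, -0.72 for the ligands and -0.44 for the other BMP-SMAD targets. They were -0.28 for the partners of ID proteins and from -0.06 to 0.0007 for the receptors, signal SMADs and other inhibitors.

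**Figure D4:**
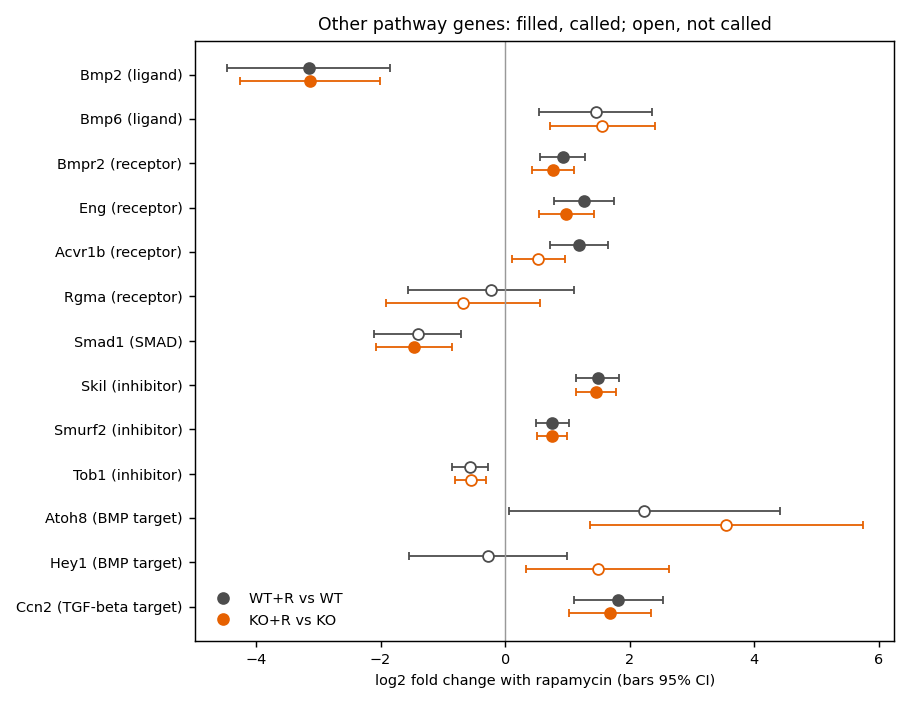
Log2 fold change with rapamycin (x axis, bars 95% confidence interval from edgeR) of the 13 other pathway genes called in any comparison (y axis, with their role), in WT and KO cells. Filled points were called and open points were not. Bmp2 and Smad1 lie to the left of 0 and Bmpr2, Eng, Skil, Smurf2 and Ccn2 to the right in each genotype.

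Some marker sums also lay apart without overlap between rapamycin and the other groups or between the genotypes with rapamycin. Among all genes, 9.43% lay higher and 9.79% lower without overlap in KO+R than in WT+R libraries. The sums of microglia and macrophages (at most 0.993 CPM) and of oligodendrocytes (at most 2.04 CPM) rest on few reads. Markers of microglia and macrophages summed to 0.134 to 0.318 CPM in KO+R, below the 0.446 to 0.8 CPM of KO, the 0.548 to 0.993 CPM of KO+P and the 0.693 to 0.716 CPM of WT+R libraries. The endothelial markers summed to 8650 to 9510 CPM in WT+R, below the 10040 to 13010 CPM of WT and the 9726 to 10930 CPM of KO+R libraries. The oligodendrocyte markers summed to 1.504 to 1.656 CPM in WT+R, above the 0.574 to 1.38 CPM of WT and the 0.953 to 1.19 CPM of KO+R libraries. The neuronal sum, nearly all Tubb3, was 1.75 to 3.87 CPM in WT+R and 8.75 to 20.3 CPM in WT+P, and 2.3 to 7.2 CPM in KO+R and 9.96 to 28.5 CPM in KO+P libraries. Their part in the results, the Id1, Id2 and Smad7 differences between KO+R and WT+R included, was not tested.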

How the data were processed

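RNA-seq had been run on poly(A) RNA from unstranded paired-end libraries of 16 mBMEC samples. The deposited values are estimated counts, TPM and effective lengths per transcript in the format of Salmon, which the submitters' processing notes list as version 1.5.2 with the GRCm39 genome; the study's methods describe STAR, HTSeq and DESeq2 instead, and the transcript index is not given in the sources used here. The authors' estimated counts of 140789 transcripts were summed per gene by the names of GENCODE vM39 (99.12% of transcripts matched) and rounded. Groups came from the labels, which call the libraries of a group biological replicates without saying which cultures they came from.

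edgeR 4.0.16 (R 4.3.3) was used with TMM scaling, filterByExpr (at least 10 counts at the median library size, 0.423 CPM) and the quasi-likelihood test, in one model of 6 groups and 16 libraries with 10 residual degrees of freedom. Calls required an adjusted p under 0.05 and a fold over 1.5, and interactions the adjusted p alone. Replicate numbers were checked for pairing: deviations from group means correlated in every pair of like-numbered libraries (r from 0.189 to 0.693). Libraries with unlike numbers were not compared, so these r have no reference. With 2 libraries a group the deviations mirror each other, and both pairs of WT+R and WT+P gave the same r of 0.605. Pairing by number was thus read from the values and is not stated in the labels. The main fit left pairing out, as did the fits without 1 library unless the block is named. Their p-values, intervals and calls therefore do not use pairing. The biological coefficient of variation, edgeR's measure of spread between libraries, was 32.31% in the main fit. It was 19% in the blocked fit, which had 8 residual degrees of freedom. Percentages of all genes called, or with a low unadjusted p, come from the main fit. None is given for the blocked fit or the other alternatives, so their calls have no such comparison here. DESeq2 1.42.0, the replicate block, no filter, DESeq2 size factors, an offset from the deposited effective lengths, fitting the compared groups alone, no limit on the fold and leaving out libraries were alternatives. The script was tested on simulated data. For correlations, log2 CPM took a prior count of 2. Levels between genes used the deposited TPM, summed per gene.

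All 7 members are described. Pathway lists are given by counts and medians, with values for up to 4 genes a list, those called in any comparison by smallest adjusted p. Members and lists were chosen with earlier results of these data known. Sequences were read from GRCm39, with starts from GENCODE vM39 canonical transcripts. Ranges of counts and intervals do not cover errors in assigning reads to genes, and at 18830503 to 26203339 counts a library Id4 and Smad9 rest on few reads.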

Additional observations from a re-analysis of the deposited data

How the results depend on the processing

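With 2 or 3 libraries a group, calls near the threshold moved more than the fold changes did. The number of the 7 genes called ranged, with 1 library left out, from 0 to 1 in KO against WT, 2 to 3 in WT+R against WT, 3 to 4 in KO+R against KO, 1 to 5 in WT+R against WT+P, 0 to 1 in KO+P against KO and 0 to 1 in KO+P against WT+P. With the compared groups fitted alone it was 0 in KO against WT, 2 in WT+R against WT and 0 in WT+R against WT+P. In KO+P against WT+P it was 1, Id3, without a filter on low counts, with the edgeR replicate block, with DESeq2 and with DESeq2 and the block. DESeq2 with the block also gave 1 in KO+P against KO, Id1, and 1 in the rapamycin by genotype interaction, Id3. The cause of these changes was not tested, beside the smaller number of libraries where one was left out. Pairing by replicate number (the edgeR block) added the calls of Id1 in WT+R against WT and of Id3 in KO+P against WT+P and changed no other call of the 7 genes. No called value changed sign under any alternative. Of 1136 values of the 7 genes under alternatives, 55, none of them called, changed sign, over 20 of 77 pairs of gene and comparison. The 13 other pathway genes were run under the same alternatives, which was chosen after the data were examined: of 702 values, 101 lost and 51 gained a call, and no called value changed sign.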
